A study of Mus musculus with 6 samples.

Results

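The clock genes *Arntl*, *Npas2*, *Clock*, *Nfil3* and *Cry1*, which normally run opposite in phase to *Dbp*, were followed in brown adipose tissue (BAT). They are 5 of the 47729 genes in the RNA sequencing (RNA-Seq) files, found there by their symbols, and all 5 passed the filter on low counts together with 17668 genes in all. The genes were grouped by their textbook phase with the diet differences of these mice already known, so their own diet comparison is described and not tested. Tissue came from male wild type C57BL/6J mice, 3 fed a high-fat diet (HFD, 45% of calories from fat) and 3 fed a standard low-fat rodent diet (LFD), from 6 to 10 weeks of age. Each library is the right interscapular BAT of 1 mouse, and per the study's methods the sequenced mice of each diet were those of greatest, medium and least fat mass. The mice were single-housed in a light and dark cycle, and the time of day at which BAT was taken is not given in the sources used here.

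The circadian clock of a mammalian cell is a feedback loop of transcription factors. *Arntl* encodes BMAL1, which pairs with CLOCK or its paralog NPAS2 and binds E-boxes in the genes of the PER and CRY repressors, of the nuclear receptors REV-ERBα and REV-ERBβ (*Nr1d1* and *Nr1d2*) and of the output factor DBP. The REV-ERBs in turn repress *Arntl*, *Npas2*, *Clock*, *Nfil3* and *Cry1* through ROR elements, which is why these genes peak when *Dbp* is low. In BAT this clock is known to set a daily rhythm of thermogenesis and lipid uptake.

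Total rounded counts lay between 17156991 and 21603487 per mouse. Mitochondrially encoded genes took 8.50% to 22.7% of the counts in HFD-fed and 3.87% to 13.8% in LFD-fed mice. To look at the tissue label, 10 brown adipocyte markers were summed. They reached 5875 to 12420 TPM (transcript abundance per length, scaled to the same total in each mouse) in HFD-fed mice. The range for LFD-fed mice was 3513 to 12699 TPM, and no marker was at 0. A sum can rest on a few abundant genes, so it is a weak check of brown identity. LFD replicate 2 summed to 10586 TPM, yet its mean over the list was only 5.50 log2 CPM (counts relative to library size). That mean was 7.89 for LFD replicate 1 and 4.95 for LFD replicate 3. A list of 20 skeletal muscle genes summed to 26.1 to 403 TPM in HFD-fed and to 2247 to 15728 TPM in LFD-fed mice, again with no gene at 0. LFD-fed mice thus carried a muscle signal that HFD-fed mice had at a lower level. In bulk tissue, fewer cells of a type and less RNA per cell cannot be told apart.

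*Arntl* (ENSMUSG00000055116, GRCm38 chr7:113207465-113314126, plus strand) was higher in HFD-fed mice. In the order of replicates 1, 2 and 3, which is kept below for values given per mouse, the HFD group had 6.26, 7.53 and 7.62 TPM and the LFD group 1.69, 3.35 and 6.57 TPM. The HFD-fed mice were close together, while LFD replicate 3 was far above the other LFD-fed mice and also above HFD replicate 1. These 2 mice had the lowest (LFD replicate 3, 3.87%) and highest (HFD replicate 1, 22.7%) mitochondrial share of counts. A larger share lowers the TPM of other genes, and its part in the order of TPM values was not tested. On the log2 CPM scale (counts relative to library size, corrected by TMM factors, with no length correction), the values were 4.47, 4.04 and 4.01 in HFD-fed and 2.47, 2.67 and 3.45 in LFD-fed mice, and the diets did not overlap. The log2 fold change of HFD over LFD was 1.27 (standard error 0.34), a 2.41-fold higher level. Rounded counts were between 341 and 388 in HFD-fed and between 85 and 222 in LFD-fed mice. Per same-numbered pair, which neither the labels nor the methods call matched, the difference in log2 CPM was 2.00, 1.36 and 0.56.

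*Nfil3* (ENSMUSG00000056749, chr13:52967209-52981073, minus strand) was higher in HFD-fed mice on both scales. It encodes a basic leucine zipper repressor that binds the same D-box as DBP and acts against it. TPM values were 11.9, 14.1 and 16.7 in HFD-fed mice and 6.06, 6.55 and 11.2 in LFD-fed mice. The diets did not overlap in TPM or in log2 CPM, although LFD replicate 3 came close to HFD replicate 1 in TPM. In log2 CPM the HFD-fed mice had 4.85, 4.40 and 4.60 and the LFD-fed mice 3.76, 3.10 and 3.68. The log2 fold change was 1.10 (standard error 0.27), which is 2.14-fold. The HFD-fed mouse was the higher one in each same-numbered pair, by 0.92 log2 CPM in the pair of replicates 3, where the difference was smallest. *Nfil3* is also known for its part in natural killer cell development, and markers of such lymphocytes (12 genes of T and NK cells, 11 of them tested) moved beside it, with a sum of 15.4 to 48.2 TPM in HFD-fed and 1.99 to 14.7 TPM in LFD-fed mice and no marker at 0. The part of these cells in the *Nfil3* difference was not tested.

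*Npas2* (ENSMUSG00000026077, chr1:39193731-39363236, plus strand), whose product can replace CLOCK as the partner of BMAL1, had the widest spread. Its TPM was 0.99, 1.31 and 1.11 under HFD and 0.12, 0.43 and 1.53 under LFD. The highest TPM of all 6 mice was thus in LFD replicate 3 and the lowest in LFD replicate 1. Rounded counts were 78, 67 and 56 in HFD-fed and 9, 25 and 76 in LFD-fed mice, so the lowest value rests on 9 reads. HFD over LFD gave a log2 fold change of 0.86 (standard error 0.69), and the pair differences in log2 CPM were 2.75, 1.36 and -0.61. Without LFD replicate 3 the log2 fold change was 1.90, and without LFD replicate 1 it was 0.43. The deposited gene length of *Npas2*, which follows the estimated mix of its transcripts, was 4236 bases in every LFD-fed mouse and 2971 to 3674 bases in HFD-fed mice, and enters its TPM but not its counts.

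*Clock* (ENSMUSG00000029238, chr5:76209868-76304792, minus strand) encodes the usual partner of BMAL1 and differed little between diets. Its TPM was 15.8, 23.6 and 21.6 in HFD-fed mice and 16.8, 21.4 and 20.5 in LFD-fed mice. The diets overlapped fully, with HFD replicate 1 at the bottom and HFD replicate 2 at the top. The log2 fold change was 0.17 (standard error 0.27) on 1497 to 2222 counts per mouse, a depth at which counting error is small against the spread between mice. Leaving out 1 mouse at a time gave 0.01 to 0.41.

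*Cry1* (ENSMUSG00000020038, chr10:85131700-85185064, minus strand) encodes a repressor of the BMAL1 pair, and it peaks late in the cycle, after *Per* and *Dbp*. In log2 CPM it was slightly higher in HFD-fed mice, with 3.03, 2.99 and 3.26 against 2.68, 2.79 and 2.79, and the diets did not overlap. The log2 fold change of 0.35 (standard error 0.24) is 1.27-fold. In TPM the order was lost, with 2.21, 3.49 and 4.33 in HFD-fed mice and 1.90, 3.50 and 3.99 in LFD-fed mice. The *Cry1* difference therefore depended on the scale.

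**Figure D1:**
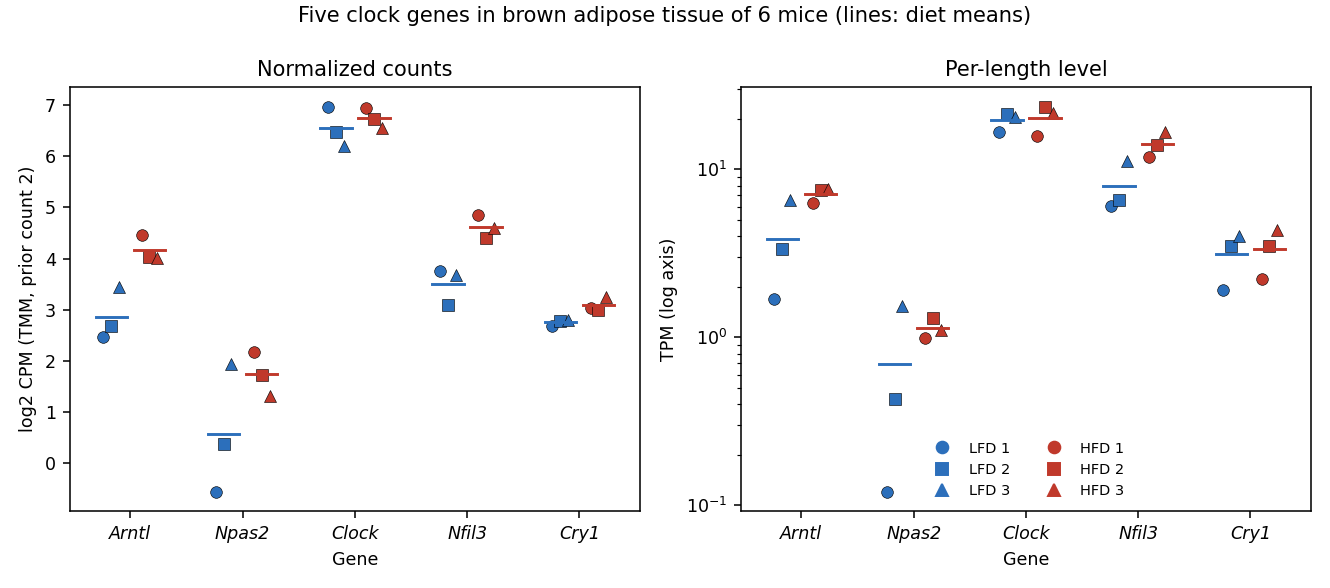
Level of each of the 5 genes in each mouse, as log2 CPM on the left and as TPM on a log axis on the right. Points are mice, with LFD in blue, HFD in red and a marker shape for each replicate number, and lines are diet means. *Arntl* and *Nfil3* have all HFD points above all LFD points on the left, *Clock* overlaps on both scales, and the LFD triangle (replicate 3) of *Npas2* is the highest of its gene on the right.

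The promoters of these genes are shown because REV-ERB and BMAL1 act on them through short DNA motifs. RefSeq windows of 300 bases (GRCm38.p6), 250 before and 50 after a start site, were found for all 5 genes and numbered 8, since *Arntl* has more than 1 start and so has *Clock*. Both strands were searched for the E-box CACGTG, the ROR core AGGTCA, the same core with its flanking base (TAGGTCA, which overlaps the core by design) and the D-box forms TTATGTAA, TTACGTAA, TTATATAA and TTACATAA. The printed windows are those of *Arntl*, *Nfil3* and *Cry1* that hold a match, in capitals, each 5′ to 3′ on the strand of its gene.
Arntl, chr7:113207261-113207560, plus strand: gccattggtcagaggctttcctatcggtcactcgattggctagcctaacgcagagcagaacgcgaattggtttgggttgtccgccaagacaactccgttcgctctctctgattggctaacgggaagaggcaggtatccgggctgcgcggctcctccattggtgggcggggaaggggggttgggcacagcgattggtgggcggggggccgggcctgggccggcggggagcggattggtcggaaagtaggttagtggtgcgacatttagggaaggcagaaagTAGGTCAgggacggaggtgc
Nfil3, chr13:52980990-52981289, minus strand: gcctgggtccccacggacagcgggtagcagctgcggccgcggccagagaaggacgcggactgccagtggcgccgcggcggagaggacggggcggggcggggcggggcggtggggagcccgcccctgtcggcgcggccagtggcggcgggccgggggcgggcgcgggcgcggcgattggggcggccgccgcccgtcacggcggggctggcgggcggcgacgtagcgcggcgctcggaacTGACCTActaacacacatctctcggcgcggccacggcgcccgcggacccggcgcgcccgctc
Cry1, chr10:85185005-85185304, minus strand: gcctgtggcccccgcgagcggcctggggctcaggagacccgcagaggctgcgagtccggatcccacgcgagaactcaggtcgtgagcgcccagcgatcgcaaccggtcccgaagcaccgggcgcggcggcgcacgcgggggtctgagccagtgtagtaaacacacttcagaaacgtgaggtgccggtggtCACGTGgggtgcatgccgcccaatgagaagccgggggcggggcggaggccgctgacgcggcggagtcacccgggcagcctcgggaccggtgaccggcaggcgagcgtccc
The *Arntl* match is TAGGTCA, beginning 30 bases after the start site. *Nfil3* holds the reverse complement, TGACCTA, beginning 12 bases before its start site. The *Cry1* window holds an E-box that begins 60 bases before the start site. Among the 8 windows, 3 held the ROR core (the other is a *Clock* window), 2 held the core with its flank, 1 held an E-box and 0 held a D-box. Among all 32851 RefSeq windows of the same length, 16.3% held the ROR core, 2.61% the core with its flank, 7.15% the E-box and 1.59% a D-box. A match describes letters and not bound protein, and none of these letters is in the *Npas2* window.

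Compared per length, *Clock* was the most abundant of the 5 genes in every mouse. In LFD-fed mice its mean was 19.6 ± 2.43 TPM (SD, n = 3), followed by *Nfil3* at 7.93 ± 2.83, *Arntl* at 3.87 ± 2.48, *Cry1* at 3.13 ± 1.09 and *Npas2* at 0.693 ± 0.741 TPM. Among neighbours in this order, *Nfil3* and *Arntl* overlapped between mice, and *Arntl* and *Cry1* overlapped as well. In HFD-fed mice the means were 20.3 ± 4.09 TPM for *Clock*, 14.2 ± 2.43 for *Nfil3*, 7.14 ± 0.761 for *Arntl*, 3.34 ± 1.07 for *Cry1* and 1.14 ± 0.162 for *Npas2* (SD, n = 3 each). There only *Clock* and *Nfil3* overlapped among neighbours. The TPM ratio of *Clock* to *Npas2*, the alternative partners of BMAL1, was 15.9, 18.0 and 19.4 in HFD-fed mice and 140, 49.7 and 13.4 in LFD-fed mice. LFD replicate 3 had the lowest ratio of the 6 mice, so the diets overlapped. The ratio of *Clock* to *Arntl* was 2.52 to 3.14 in HFD-fed mice and 9.93, 6.38 and 3.12 in LFD-fed mice.

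Across the 5 genes, the log2 fold change was above 0 for every gene, with a median of 0.86, while the median over all 17668 genes tested was -0.05. In log2 CPM, 3 of the 5 (*Arntl*, *Nfil3* and *Cry1*) were higher under HFD with no overlap between diets, as were 6.72% of all genes tested. In TPM only *Nfil3* was, against 1.65% of all genes. On the log2(TPM + 1) scale the median of all genes was -0.18, and the difference between diet means was 0.86 for *Arntl*, 0.80 for *Nfil3*, 0.42 for *Npas2*, 0.08 for *Cry1* and 0.04 for *Clock*. The HFD-fed mouse was the higher one in all 3 same-numbered pairs for *Arntl*, *Nfil3* and *Cry1*, which held for 21.1% of all genes. By edgeR, a call was set at an adjusted p under 0.01 with a log2 fold change beyond 1.5 in either direction. At these thresholds 0% of all genes were called. At an unadjusted p under 0.05 were 10.5% of all genes in either direction and 3.86% higher in HFD-fed mice. DESeq2 called 1.38% of all genes at the first thresholds. At an adjusted p under 0.05 it placed 2.53% of all genes in either direction and 0.75% higher in HFD-fed mice. These DESeq2 shares are of the 29856 genes with any count, including any left without an adjusted p. With a replicate block in the edgeR fit, 17.5% of all genes were at an unadjusted p under 0.05 and 1.04% at an adjusted p under 0.05. Since the 5 genes were grouped with this contrast known, they were not set against these thresholds.

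The arm of the clock that these genes oppose lay the other way. *Dbp*, a D-box activator driven by BMAL1, had 1.66, 5.96 and 2.75 TPM in HFD-fed mice and 53.95, 69.8 and 27.2 TPM in LFD-fed mice. No LFD-fed mouse came near the HFD-fed mice, and LFD replicate 3 was the lowest of its diet. Its log2 fold change of -3.83 (standard error 0.61) had an adjusted p = 0.170 by edgeR, 0.0483 by edgeR with the replicate block and 1.14e-07 by DESeq2. *Dbp* was itself listed with earlier results of these data known, so these p-values are not independent evidence. The ratio of *Arntl* to *Dbp* in TPM was 3.77, 1.26 and 2.77 in HFD-fed mice and 0.0313, 0.0480 and 0.242 in LFD-fed mice. *Arntl* transcripts thus outnumbered those of *Dbp* in every HFD-fed mouse, and the reverse held in every LFD-fed mouse. *Nfil3*, the repressor that competes with DBP, had 7.14, 2.36 and 6.08 times the TPM of *Dbp* in HFD-fed mice and 0.112, 0.0938 and 0.412 times in LFD-fed mice.

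A list of 11 genes in phase with *Dbp* was written with earlier results of these data known. All 11 had a log2 fold change below 0, with a median of -1.57, and 10 were at an unadjusted p under 0.05 by edgeR, where 6.62% of all genes were at that p and lower in HFD-fed mice. None was called at the first thresholds, and the smallest adjusted p was 0.170. DESeq2 placed 6 of the 11 at an adjusted p under 0.05 (*Dbp*, *Per1*, *Per3*, *Nr1d1*, *Nr1d2* and *Usp2*), all lower under HFD. Of all 29856 genes with any count, 2.53% were at that threshold in either direction. That total includes any gene that DESeq2 left without an adjusted p, so the share among genes given one may be higher. In log2 CPM, 9 of the 11 were lower under HFD with no overlap, against 9.23% of all genes. *Per1*, a light-responsive and hormone-responsive repressor, had 4.89, 4.71 and 4.88 log2 CPM under HFD and 6.09, 5.78 and 6.05 under LFD, a log2 fold change of -1.15 with the smallest standard error of the list (0.19). *Per2* was at -0.75 (standard error 0.21). *Per3* was at -1.81. The REV-ERB genes, direct repressors of *Arntl*, were at -1.70 for *Nr1d1* and -1.13 for *Nr1d2*. *Nr1d1* had 8.84, 12.8 and 8.59 TPM in HFD-fed mice and 38.6, 41.0 and 25.1 TPM in LFD-fed mice, with no overlap. *Ciart*, a repressor of the BMAL1 pair, was at -1.87, the deubiquitinase gene *Usp2* at -1.78, *Tef*, a relative of *Dbp*, at -1.57 and the repressor gene *Bhlhe41* at -1.03. *Hlf*, the other relative of *Dbp*, was at -0.27 (standard error 0.79) and overlapped between diets.

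**Figure D2:**
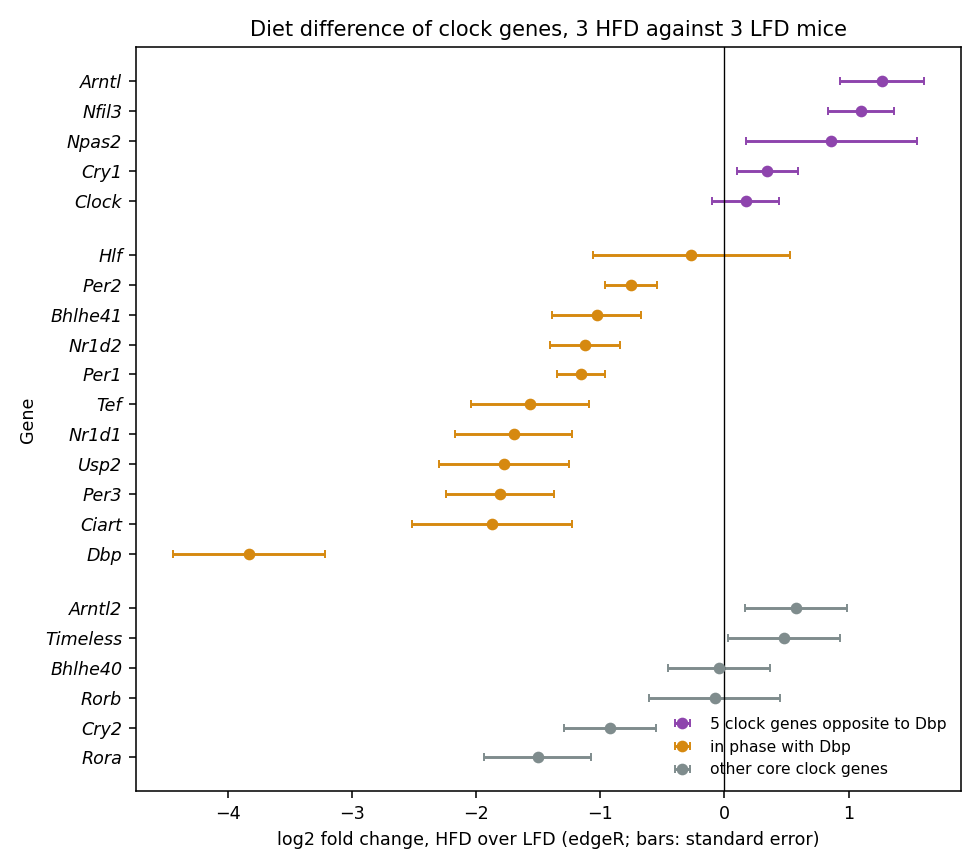
Log2 fold change of HFD over LFD for the 5 genes (purple), the 11 genes in phase with *Dbp* (orange) and 6 other core clock genes (grey), with points from edgeR and bars of 1 standard error. The purple points lie between 0.17 and 1.27, and the orange points between -3.83 and -0.27.

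LFD replicate 3 stood between its diet and the HFD-fed mice for much of the clock. It was the highest LFD-fed mouse in log2 CPM for *Arntl* and *Npas2*, while for *Cry1* it nearly tied with LFD replicate 2 (2.794 against 2.788). It was the lowest LFD-fed mouse for 10 of the 11 genes in phase with *Dbp*, *Per1* being the exception. Among all genes tested, LFD replicate 3 was the lowest LFD-fed mouse for 35.9% and the highest for 35.5%. On the same log2 CPM scale *Clock* had its lowest LFD value in this mouse, and *Nfil3* was highest in LFD replicate 1. In TPM, by contrast, LFD replicate 3 had the highest *Nfil3* of its diet, and *Clock* was lowest in LFD replicate 1. Without LFD replicate 3, the log2 fold change of *Arntl* was 1.63 and that of *Nfil3* 1.17. In log2 CPM, 4 of the 5 genes (*Npas2* added) then did not overlap between diets, beside 16.9% of all genes. This gain was not particular to that mouse. Without LFD replicate 1 it was also 4 of the 5, with *Clock* added, beside 2525 of the 17668 genes tested.

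**Figure D3:**
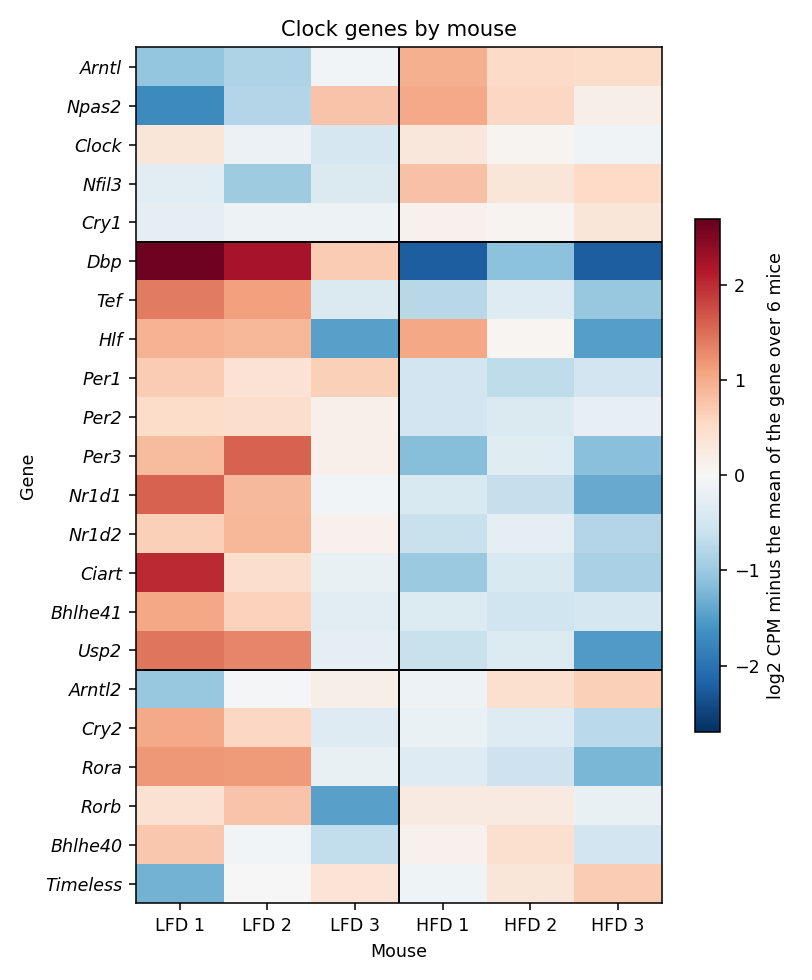
Log2 CPM of each clock gene minus its mean over the 6 mice, with mice in columns (LFD left, HFD right) and genes in rows, grouped as the 5 genes, the genes in phase with *Dbp* and 6 other core clock genes. Red is above and blue below the mean. LFD replicate 3 is paler than LFD replicates 1 and 2 in most rows of the middle group.

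The skeletal muscle signal differed between the diets, as did many of the clock genes. Muscle is a tissue with the same clock, and the summed TPM of the 20 muscle genes was 141, 403 and 26.1 in HFD-fed mice and 6461, 15728 and 2247 in LFD-fed mice. LFD replicate 3, with the least muscle signal of its diet, also had the least *Dbp* and the most *Arntl* of its diet. The order within diets did not hold throughout. LFD replicate 2 had the most muscle signal, but *Arntl* was lowest in LFD replicate 1 (1.69 against 3.35 TPM). HFD replicate 3 had the least muscle signal of its diet, with the lowest *Arntl* there in log2 CPM (4.01) and the highest in TPM (7.62). HFD replicate 2 had the most muscle signal and the most *Dbp* of its diet (5.96 TPM). All 20 muscle genes had a log2 fold change below 0, with a median of -6.17, and 19 did not overlap between diets. The mean log2 CPM of the list was -0.52 to 3.83 in HFD-fed and 6.28 to 9.35 in LFD-fed mice. With this mean as a covariate, the log2 fold changes were 0.76 (standard error 0.70) for *Arntl*, 0.77 (0.59) for *Nfil3*, 0.75 (0.59) for *Clock*, 0.05 (0.56) for *Cry1* and -0.09 (1.35) for *Npas2*. The muscle means of the diets do not overlap, so muscle and diet cannot be told apart by that fit, and the part of muscle in the clock differences was not otherwise tested. With the covariate, 600 of the 17668 genes tested were at an unadjusted p under 0.05, where 1851 were without it. The brown adipocyte markers moved as well, with 7 of 10 at a log2 fold change above 0, a median of 1.35 and 2 that were higher under HFD with no overlap. Their mean log2 CPM was 6.65 to 8.51 in HFD-fed and 4.95 to 7.89 in LFD-fed mice, and their part in the clock differences was not tested. Of the other marker lists, 12 macrophage genes summed to 1892 to 3997 TPM in HFD-fed and 584 to 4376 TPM in LFD-fed mice (*Itgam* was at 0 in at least 1 mouse). Endothelial genes summed to 95.2 to 396 and 127 to 243 TPM, and Schwann cell and nerve genes to 28.9 to 101 and 23.4 to 42.0 TPM, in HFD-fed and LFD-fed mice.

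**Figure D4:**
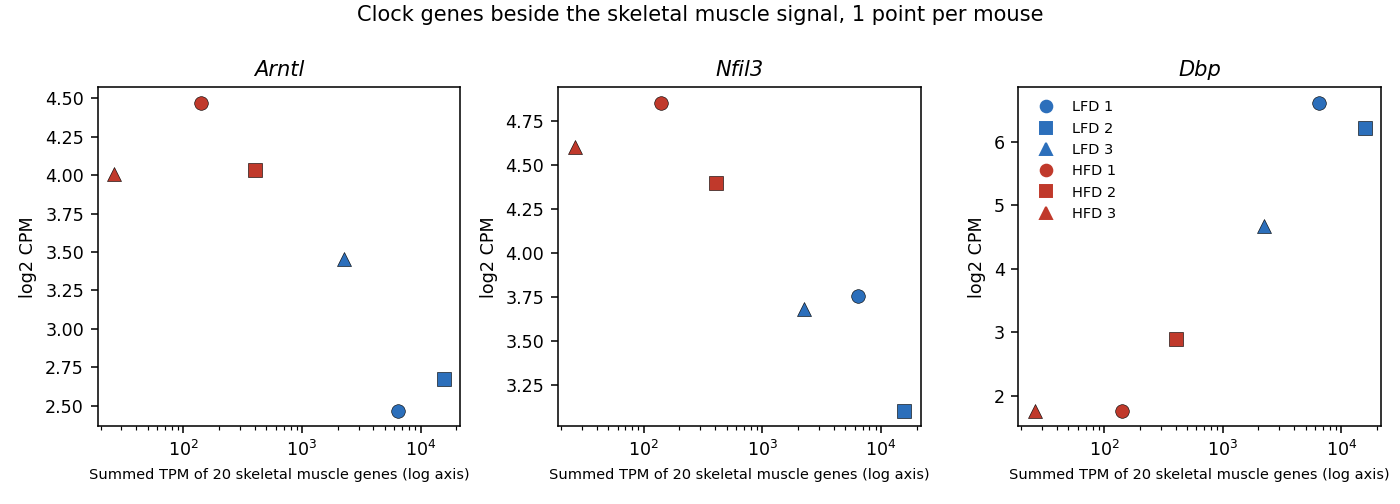
Log2 CPM of *Arntl*, *Nfil3* and *Dbp* against the summed TPM of 20 skeletal muscle genes on a log axis, with 1 point per mouse. HFD-fed mice (red) lie at 26.1 to 403 TPM and LFD-fed mice (blue) at 2247 to 15728 TPM, and the LFD triangle (replicate 3) lies nearest to the HFD points for *Arntl* and *Dbp*.

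The rest of the core clock split in both directions. Of 7 genes, 2 were at an unadjusted p under 0.05 by edgeR, both lower in HFD-fed mice, and 0 were called. These were *Rora*, an activator at ROR elements (-1.50, standard error 0.43, edgeR adjusted p = 0.295), and *Cry2*, the relative of *Cry1* (-0.92, standard error 0.37, edgeR adjusted p = 0.460). *Cry1* and *Cry2* thus had fold changes of opposite sign. *Rorb* was at -0.08, *Bhlhe40* at -0.04, *Timeless* at 0.48 and *Arntl2*, the paralog of *Arntl*, at 0.58 (standard error 0.41). *Arntl2* had 2.35, 6.43 and 9.19 TPM in HFD-fed mice and 2.47, 4.86 and 7.97 TPM in LFD-fed mice, ranges that overlapped.

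Among genes that act on clock proteins, none differed by more than 0.54 in log2 fold change. Of 8 kinase and ubiquitin ligase genes, 0 were at an unadjusted p under 0.05, with a median log2 fold change of -0.23, and the 2 with the largest values were the F-box genes *Fbxl21* (-0.54) and *Btrc* (-0.52). Of 3 genes of the REV-ERB corepressor, 0 were at that p, with *Hdac3* at -0.27 and *Ncor1* at -0.24. Of 5 output genes, 0 were at that p, although *Elovl3*, a fatty acid elongase of brown fat, was at 1.96 (standard error 1.47) and the lipase gene *Lpl* at -0.74 (standard error 0.87). Of 15 other genes of the bHLH-PAS family and its coactivators, 11 were tested, and 1 was at that p. This was *Hif3a* (-3.04, standard error 1.02, edgeR adjusted p = 0.373), which had 0 to 8 counts in HFD-fed and 11 to 52 in LFD-fed mice. *Arnt2* was at -0.72. Over all 49 genes of these lists, 45 were tested, and 13 were at an unadjusted p under 0.05, all of them lower in HFD-fed mice, beside 10.5% of all genes in either direction and 6.62% lower. These lists too were written with earlier results known. With the muscle covariate, 4 of the 45 were at that p, 2 higher and 2 lower in HFD-fed mice, beside 600 of all 17668 genes.

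Genes with patterns most like the 5 were looked for among 12089 genes of a mean log2 CPM of at least 2, by the root mean square (RMS) difference between profiles over the 6 mice, each profile being log2 CPM minus the mean of the gene. The nearest to *Arntl* were *Skil* (RMS difference 0.17 log2 units), *Shtn1* (0.20) and *Lipa* (0.21). *Nfil3* was 31st from *Arntl*, with an RMS difference of 0.35, and *Arntl* was 28th from *Npas2*, with 0.46. *Clock* and *Cry1* had the smallest RMS difference of any pair of the 5 (0.33), although *Cry1* was only 3508th from *Clock*. *Nfil3* and *Cry1* differed by 0.47, with *Cry1* 571st from *Nfil3*. In rank, most of the remaining pairs were far apart. From *Arntl*, *Cry1* was 926th and *Clock* 4027th. From *Npas2*, *Nfil3* was 1407th, *Cry1* 2559th and *Clock* 6724th. *Arntl* was 8360th from *Cry1* and 9546th from *Clock*. The nearest to *Nfil3* were *Spry4* (0.14), *Fam20c* (0.17) and *Mfge8* (0.20), and the nearest to *Npas2* were *Sh3bgrl3* (0.37) and *Myo1e* (0.37). *Clock* and *Cry1* had flat profiles, with an RMS size of 0.27 and 0.19 log2 units against 0.73 for *Arntl* and 0.97 for *Npas2*. Many genes therefore lay near them, and ranks counted from them run high even at a small RMS difference. Their nearest were *Fgfr1op2*, *Supt4a* and *Mrps25* (0.05 each) for *Clock*, and *Picalm* (0.05), *Stx7* (0.06) and *Foxn2* (0.06) for *Cry1*. The 10 genes nearest to the mean profile of the 5 were *Nedd9*, *Creg1*, *Slc43a2*, *Hist3h2a*, *Ctsl*, *Hist1h4i*, *Ninj1*, *Gng11*, *Tex30* and *Skil*, at 0.11 to 0.20 log2 units. None of these is a gene of the clock lists. The 6 points of each profile share the depth and the tissue makeup of their libraries.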

How the data were processed

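BAT of 3 HFD-fed and 3 LFD-fed mice was sequenced after removal of ribosomal RNA, in single-end reads. Per the labels, the authors trimmed adapters with Trimmomatic 0.36 and estimated gene levels with RSEM 1.3.0 on GRCm38.p4, and the annotation was that of Ensembl per the study's methods. The deposited expected counts are not normalized, and RSEM shares a read between the genes it matches, so they need not be whole. The deposited TPM values are divided by effective gene length and scaled to a fixed total per mouse, so a larger mitochondrial share lowers the TPM of other genes. The strand setting of the counting is not given in the sources used here. *Arntl* overlaps an antisense gene (*Gm45355*) in GENCODE M21, which has no row of its own in the tables.

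After rounding of the expected counts, each mouse had between 17156991 and 21603487 of them, and no pair of mice was a repeated library. The diets were compared by the quasi-likelihood test of edgeR 4.0.16 (R 4.3.3) on TMM-scaled libraries. Genes with few counts were removed by filterByExpr, and p-values of the 17668 others were adjusted by Benjamini-Hochberg. Standard errors are the absolute log2 fold change over the root of the F statistic. A call needed both an adjusted p under 0.01 and a log2 fold change beyond 1.5 in either direction. Log2 CPM used a prior count of 2. DESeq2 1.42.0 was an alternative. The members and gene lists were chosen with earlier results of these data known. The text names the 5 members, all genes of the first 2 clock lists, the 2 largest fold changes of each other list and the nearest profiles, 3 per member and 10 for their mean. Some items that this rule names are not reported here. Positions are those of GENCODE M21 and promoters those of RefSeq.

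The labels give both diets the replicate numbers 1 to 3. Deviations from the diet means correlated across genes with r of 0.498, 0.229 and 0.522 in the same-numbered pairs. The other pairs had r of -0.528 to 0.0532. Deviations within a diet sum to 0, so these r values are not independent. The numbers were taken to pair the mice in the alternative fit with a replicate block. This pairing was read from the same values that the fit tests, which limits its p-values. The mitochondrial share also fell with replicate number, at 22.7%, 16.5% and 8.50% under HFD and 13.8%, 9.12% and 3.87% under LFD. Its part in these correlations was not tested. Neither the labels nor the methods say that these mice were matched. Other alternatives were RLE size factors, no filter on low counts, mitochondrially encoded genes left out, a skeletal muscle covariate, log2(TPM + 1), a prior count of 0.5 and each mouse left out in turn.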

Additional observations from a re-analysis of the deposited data

How the results depend on the processing

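The log2 fold changes of *Arntl*, *Nfil3*, *Clock* and *Cry1* stayed above 0 under every alternative run, and that of *Npas2* did so under all but the muscle covariate. Once the muscle list was added to the fit, the log2 fold changes were 0.76 for *Arntl*, -0.094 for *Npas2*, 0.75 for *Clock*, 0.77 for *Nfil3* and 0.051 for *Cry1*, with 600 of all genes and 4 of the clock lists at an unadjusted p under 0.05 (1851 and 13 without it). On the log2(TPM + 1) scale the *Cry1* difference was 0.079, and 1 member and 292 of all genes were higher with no overlap (3 and 1188 in log2 CPM). DESeq2 called 411 genes and 2 of the clock lists (*Dbp* and *Per3*), where edgeR called 0. Under the replicate block the same thresholds called 0 genes, with 3094 at an unadjusted p under 0.05. At an adjusted p under 0.05 there were 184 (0 without the block), of which 1 is in the clock lists (*Dbp*). The log2 fold changes under the block were 1.31 for *Arntl*, 1.15 for *Npas2*, 0.20 for *Clock*, 1.11 for *Nfil3* and 0.34 for *Cry1*. The causes of these shifts were not tested.

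With 1 mouse left out, the ranges were 1.07 to 1.63 for *Arntl*, 0.43 to 1.90 for *Npas2*, 0.01 to 0.41 for *Clock*, 0.91 to 1.21 for *Nfil3* and 0.26 to 0.39 for *Cry1*. *Npas2* reached 1.90 without LFD replicate 3. Genes at an unadjusted p under 0.05 ranged from 1106 without HFD replicate 3 to 3146 without LFD replicate 3 (1131 without HFD replicate 2). Those of the clock lists ranged from 10 to 16, with 0 called in each case. Without LFD replicate 3, however, 222 genes were at an adjusted p under 0.05. Genes higher with no overlap in log2 CPM ranged from 1484 to 2984, and members from 3 to 4, as fewer mice overlap less. Depth limits *Npas2* most, at 9 counts in LFD replicate 1.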
